A study of Mus musculus with 6 samples.

Results

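The 10 genes described here belong to the NRF2 antioxidant pathway: the transcription factor gene Nfe2l2, its inhibitor gene Keap1, and 8 target genes, Nqo1, Hmox1, Gclc, Gclm, Txnrd1, Srxn1, Slc7a11 and G6pdx. They were taken by symbol from a table of 51912 genes, and all 10 were found. The table holds RNA levels of B16F10, a pigmented mouse melanoma cell line, in 3 wild-type libraries (WT, replicates 1, 2 and 3) and 3 libraries labelled as knocked out for annexin A10, genotype ANXA10-/- (A10KO, replicates 1, 13 and 14). Annexin A10 is a calcium-dependent membrane-binding protein, and the study asked how it acts on melanoma spread. No treatment is given for either group, and the labels do not say whether the replicates are clones, cultures or repeated preparations, so each p-value reflects how far the libraries scatter, and that scatter may be technical.

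NRF2, the product of Nfe2l2, is held in the cytoplasm by KEAP1, which passes it to a CUL3 ubiquitin ligase for destruction. Oxidants and electrophiles modify cysteines of KEAP1, NRF2 then escapes, pairs with a small MAF protein in the nucleus and binds antioxidant response elements near genes for glutathione synthesis, thioredoxin reduction, NADPH supply and detoxification. This control acts largely on the protein, so the Nfe2l2 RNA need not follow NRF2 activity. In melanocytes, melanin synthesis is itself a source of quinones and peroxides.

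Levels are given in TPM (the share of all transcripts, scaled to a fixed total), a unit corrected for gene length and library size, so they can be set side by side between genes. The depth of the libraries is unknown, and no counting interval is given. Library totals ran from 969834 to 985045 TPM, and 11889 to 12236 genes reached 1 TPM. Anxa10 was listed at 0 TPM in all 6 libraries, WT included, and gives no check of the labels. Melanocyte markers were present, with 8 of 8 tested. Mitochondrially encoded transcripts took 6.32% to 6.56% of TPM in WT, 7.93% in A10KO replicate 1, 14.7% in A10KO replicate 13 and 7.37% in A10KO replicate 14. Every A10KO share was thus above every WT share, and replicate 13 stood furthest apart. Of 10 mitochondrially encoded genes tested, 8 had every A10KO library above every WT library, where 5.61% of all genes did. Their list had a median log2 change, A10KO minus WT, of 0.64, and 0.36 without replicate 13. Changes of members and medians of lists are given below without replicate 13 too where that moves them by over 1.5 times.

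The promoters of 8 members were found in a RefSeq table (GRCm38.p6) of windows running from 250 bases before to 50 bases after a gene's start. Hmox1 and Gclc were not matched. Each window was searched on both strands for the core of the antioxidant response element, TGACNNNGC or its reverse GCNNNGTCA. Of the 10 windows of members (Txnrd1 has 3), 5 held it, those of Nfe2l2, Gclm, the second start of Txnrd1, Srxn1 and G6pdx, against 4071 of all 32851 windows (12.4%). The members were chosen as genes of the NRF2 pathway, so a larger share among them can come from that choice and is a description only. The AP-1 letters TGANTCA, which can overlap the core, were in 7.81% of all windows and in 1 of the 10, that of Srxn1, at 102 and 45 bases before the start. In the Srxn1 window the core lay 28 bases after the start. The 250 bases before the start are shown, 5′ to 3′ on the gene's strand, for the 4 windows with the core ahead of the start. They were picked by that position alone, whatever the level of the gene. In A10KO, Gclm and Txnrd1 stood higher, G6pdx stood lower and Nfe2l2 overlapped with WT. Keap1, also higher, had no core in its window. Capitals mark the core.
Nfe2l2, chr2:75704664-75704913, minus strand: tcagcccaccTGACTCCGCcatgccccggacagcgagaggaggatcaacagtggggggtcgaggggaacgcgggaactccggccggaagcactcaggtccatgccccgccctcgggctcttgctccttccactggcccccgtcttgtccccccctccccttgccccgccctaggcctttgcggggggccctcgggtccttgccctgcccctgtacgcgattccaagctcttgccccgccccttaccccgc
Gclm, chr3:122245307-122245556, plus strand: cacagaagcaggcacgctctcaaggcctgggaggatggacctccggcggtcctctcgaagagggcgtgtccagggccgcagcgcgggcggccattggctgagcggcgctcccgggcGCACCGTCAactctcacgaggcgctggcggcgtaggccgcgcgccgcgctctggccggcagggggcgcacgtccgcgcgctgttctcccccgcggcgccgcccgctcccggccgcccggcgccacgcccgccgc
Txnrd1, chr10:82858956-82859205, plus strand: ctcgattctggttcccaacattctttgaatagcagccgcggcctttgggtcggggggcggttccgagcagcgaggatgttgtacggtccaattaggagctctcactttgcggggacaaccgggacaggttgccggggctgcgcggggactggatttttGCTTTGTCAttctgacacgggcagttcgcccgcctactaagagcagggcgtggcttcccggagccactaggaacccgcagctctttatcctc
G6pdx, chrX:74428881-74429130, minus strand: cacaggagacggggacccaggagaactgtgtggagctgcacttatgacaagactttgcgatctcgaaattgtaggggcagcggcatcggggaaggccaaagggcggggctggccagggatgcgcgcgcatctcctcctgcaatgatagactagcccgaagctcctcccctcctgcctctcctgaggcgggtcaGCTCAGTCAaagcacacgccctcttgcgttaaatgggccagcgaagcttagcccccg
The core began 240 bases before the start in Nfe2l2, 134 in Gclm, 92 in Txnrd1 and 57 in G6pdx. A match describes the letters and is not evidence of binding.

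In A10KO, the RNAs of both subunits of glutamate-cysteine ligase, of thioredoxin reductase 1 and of Keap1 stood above every WT library, and that of glucose-6-phosphate dehydrogenase stood below every WT library. The differences were modest, between 1.19-fold and 1.66-fold for the higher genes and 0.810-fold for the lower one, as ratios of mean TPM. No member passed the test. Nfe2l2 itself overlapped between the groups, as did Hmox1 and Srxn1. Nqo1 and Slc7a11 were near the bottom of the scale.

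The test was limma with a mean-variance trend on log2(TPM + 1), with Benjamini-Hochberg adjustment over the 12068 genes that reached 1 TPM in at least 3 libraries. Of the 10 members, 8 entered it, and Nqo1 and Slc7a11 were below the filter. At an adjusted p under 0.05 limma called 0 of 8 members, where 5 of all genes were called (0.0414%; 0.0166% higher and 0.0249% lower). At an unadjusted p under 0.05 there was 1 higher member, Gclm, and 1 lower, G6pdx, against 309 higher (2.56%) and 757 lower (6.27%) among all genes, 8.83% in either direction. The groups did not overlap for 4 members that were higher in A10KO, where 5.61% of all genes were, and for 1 that was lower, where 11.5% of all genes were. The median log2 change of the 8 tested members was 0.28, beside -0.04 over all genes; without A10KO replicate 13 these were 0.19 and -0.08. With these few members, chosen as a pathway with earlier results known, the counts are a description. Leaving out a library cannot make separate groups overlap, so the same 5 members without A10KO replicate 13 are no check on that library. Under 4 other scalings the members without overlap were again the same 5. The split over all genes moved, for example to 1019 higher and 1025 lower under median-of-ratios scaling in place of 677 and 1390.

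**Figure D1:**
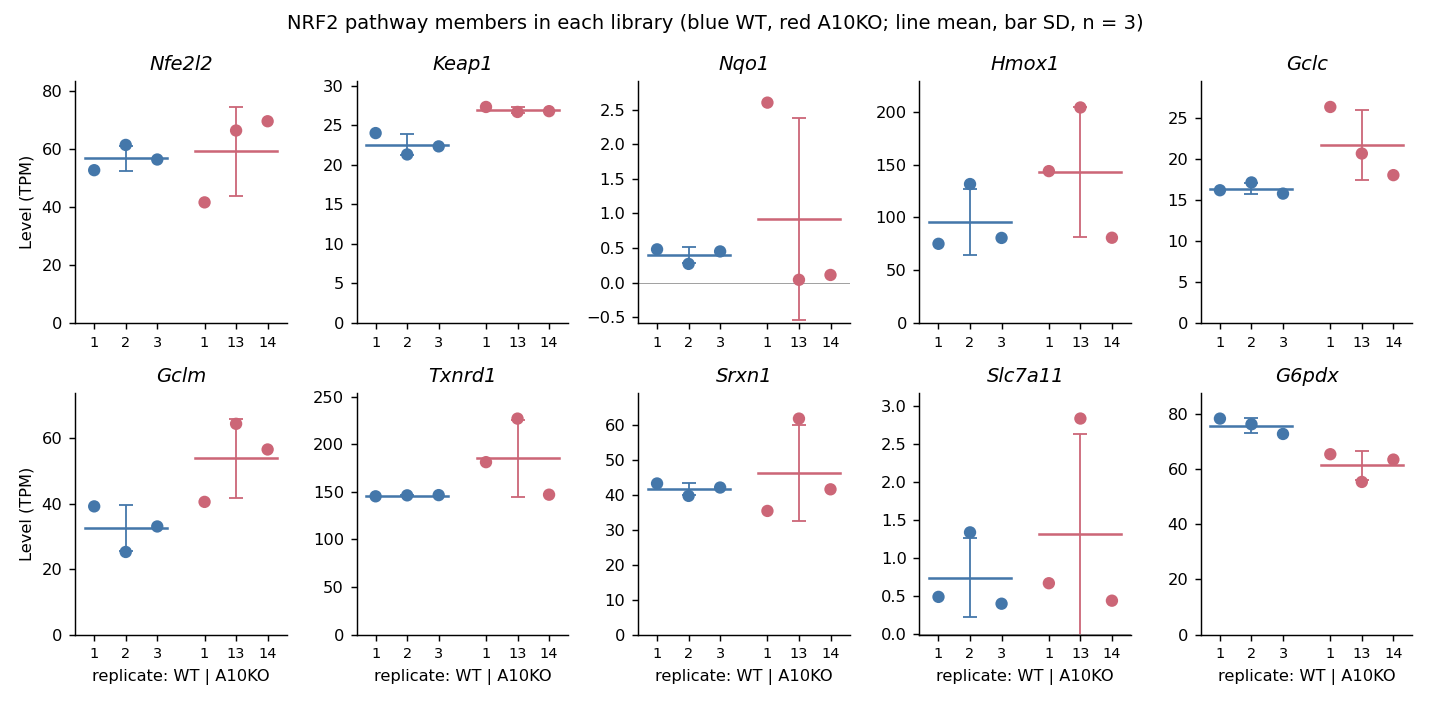
Level in TPM of each of the 10 members (vertical axes, own scale per gene) in each library (horizontal axes, replicate numbers; WT blue, A10KO red), with group means as lines and SD as bars (n = 3 each). Keap1, Gclc, Gclm and Txnrd1 have every A10KO point above every WT point, with Txnrd1 by a margin of under 1 TPM, and G6pdx has every A10KO point below.

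The regulators came first. Nfe2l2 (ENSMUSG00000015839, GRCm38 chromosome 2, 75675513 to 75704641, from the GENCODE M21 annotation, as for all members) stood at 52.8, 61.5 and 56.5 TPM in WT and at 41.7, 66.5 and 69.7 TPM in A10KO replicates 1, 13 and 14. A10KO replicate 1 held the lowest value of the 6 and the other A10KO libraries the highest values, so the groups overlapped. The log2 change was 0.03 (SE 0.21, limma adjusted p = 0.979), and its 95% interval ran from -0.45 to 0.50. Without A10KO replicate 1 the change was 0.26, and without replicate 13 or 14 it was -0.07 or -0.11.

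Keap1 (ENSMUSG00000003308, chromosome 9, 21229730 to 21239361), the substrate adaptor that binds NRF2, stood at 24.00, 21.30 and 22.32 TPM in WT and at 27.30, 26.67 and 26.77 TPM in A10KO. Every A10KO library was above every WT library, and the A10KO values lay closer together than those of WT. The mean went from 22.5 ± 1.36 to 26.9 ± 0.339 TPM (SD, n = 3 each), a log2 change of 0.25 (SE 0.13, limma adjusted p = 0.627). Its log2 SD was 0.08 in WT and 0.02 in A10KO, and Keap1 was the tested member whose SD was not larger in A10KO. The other 7 tested members varied more in A10KO, as did 78.2% of all genes tested. An antisense gene, Gm16754, shares 510 exonic bases with Keap1 and reached at most 1.1 TPM; the strand setting of the counting is not given, so reads of the overlap cannot be told apart.

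In each library the ratio of Nfe2l2 to Keap1 TPM was 2.20, 2.89 and 2.53 in WT and 1.53, 2.49 and 2.60 in A10KO. The ranges overlapped, and a two-sided exact permutation test over the 6 libraries gave p = 0.6. With 3 libraries against 3 this test cannot go below 0.1.

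Glutathione synthesis begins with glutamate-cysteine ligase, a dimer of a catalytic subunit, encoded by Gclc, and a modifier subunit, encoded by Gclm. Gclm (ENSMUSG00000028124, chromosome 3, 122245557 to 122270732) stood at 39.2, 25.2 and 33.0 TPM in WT and at 40.5, 64.3 and 56.5 TPM in A10KO. A10KO replicate 1 lay just above WT replicate 1, and A10KO replicates 13 and 14 lay clear of all WT libraries. The mean went from 32.5 ± 6.97 to 53.8 ± 12.1 TPM (SD, n = 3 each), a ratio of 1.66. On the log2 scale the difference of 0.71 (SE 0.22, 95% interval 0.19 to 1.23) was the largest among the tested members, with an unadjusted p = 0.0141 and a limma adjusted p = 0.436. Without A10KO replicate 13 the change was 0.57. Over all 16 alternatives it lay between 0.54 and 0.89, and the adjusted p between 0.299 and 0.958. Exons of Gclm overlap Gm17494 on the opposite strand by 296 bases and Gm6061 on the same strand by 244 bases; these reached at most 4.37 and 2.09 TPM.

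Gclc (ENSMUSG00000032350, chromosome 9, 77754535 to 77794485) stood at 16.2, 17.1 and 15.8 TPM in WT and at 26.3, 20.6 and 18.0 TPM in A10KO. All A10KO libraries were above all WT libraries, with replicate 1 highest. The mean went from 16.4 ± 0.698 to 21.7 ± 4.24 TPM, a log2 change of 0.37 (SE 0.17, limma adjusted p = 0.584), which was 0.23 without A10KO replicate 1. The A10KO libraries were ordered differently for the 2 subunits: replicate 1 held the highest Gclc and the lowest Gclm among them. The ratio of Gclm to Gclc TPM was 2.42, 1.47 and 2.10 in WT and 1.54, 3.12 and 3.14 in A10KO, ranges that overlapped (exact permutation p = 0.3, two-sided).

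Slc7a11 (ENSMUSG00000027737, chromosome 3, 49892526 to 50443614) encodes xCT, the cystine-importing chain of a transporter whose other chain is encoded by Slc3a2. It stood at 0.49, 1.34 and 0.40 TPM in WT and at 0.67, 2.84 and 0.44 TPM in A10KO. WT replicate 2 and A10KO replicate 13 were the libraries above 1 TPM. The groups overlapped, and with no filter the log2 change was 0.31 (SE 0.43, limma adjusted p = 0.846). Without A10KO replicate 13 it was -0.13, so its sign rests on that library. Slc3a2, by contrast, stood at 261 ± 20.0 TPM in WT and 260 ± 22.9 TPM in A10KO (SD, n = 3 each).

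Txnrd1 (ENSMUSG00000020250, chromosome 10, 82833951 to 82897712), the cytosolic selenoenzyme that reduces thioredoxin with NADPH, was the most abundant member in WT. It stood at 145.35, 146.36 and 146.6 TPM in WT and at 181.22, 226.97 and 147.06 TPM in A10KO. The WT libraries lay within about 1 TPM of each other, and A10KO replicate 14 stood beside them rather than with the other A10KO libraries. The mean went from 146 ± 0.663 to 185 ± 40.1 TPM, a log2 change of 0.32 (SE 0.16, limma adjusted p = 0.634). Without A10KO replicate 13 the change was 0.16, and without replicate 14 it was 0.47. The log2 SD in WT was 0.0065, beside a median of 0.14 over all genes tested.

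Srxn1 (ENSMUSG00000032802, chromosome 2, 152105516 to 152111376) encodes sulfiredoxin, which restores over-oxidized peroxiredoxins. It stood at 43.3, 39.8 and 42.1 TPM in WT and at 35.4, 61.9 and 41.6 TPM in A10KO. A10KO replicate 13 was the highest library and A10KO replicate 1 the lowest. The log2 change was 0.11 (SE 0.20, limma adjusted p = 0.894), and without replicate 13 it was -0.12. The ratio of Txnrd1 to Srxn1 TPM was 3.36, 3.68 and 3.48 in WT and 5.11, 3.67 and 3.53 in A10KO (exact permutation p = 0.3, two-sided), and A10KO replicate 1 alone lay far from the rest.

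Hmox1 (ENSMUSG00000005413, chromosome 8, 75093621 to 75100589) encodes heme oxygenase 1, which cleaves heme to biliverdin, iron and carbon monoxide. It stood at 75.0, 132 and 80.6 TPM in WT and at 144, 204 and 80.7 TPM in A10KO. WT replicate 2 stood well above the other WT libraries, and A10KO replicate 14 stood at their level, so the groups overlapped. The mean went from 95.7 ± 31.2 to 143 ± 61.6 TPM, a log2 change of 0.52 (SE 0.35, 95% interval -0.30 to 1.34, limma adjusted p = 0.72). Without A10KO replicate 13 the change was 0.22, and without A10KO replicate 14 it was 0.88. Hmox1 is also a gene of macrophages. Of 12 macrophage and leukocyte markers, 9 were under 1 TPM in every library, and 4 of these were at 0 in all 6. The summed level was 4.09 to 6.36 TPM in WT and 1.48 to 3.04 TPM in A10KO.

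Nqo1 (ENSMUSG00000003849, chromosome 8, 107388225 to 107403206) encodes a quinone reductase and is widely read as a marker of NRF2 activity. It stood at 0.48, 0.27 and 0.45 TPM in WT and at 2.60, 0.04 and 0.11 TPM in A10KO. Within A10KO, replicate 1 was above every WT library and replicates 13 and 14 below every WT library, a 65.0-fold range at levels near the bottom of the scale. With no filter the log2 change was 0.20 (SE 0.48, limma adjusted p = 0.905), and it was -0.38 without A10KO replicate 1 and 0.52 without replicate 13. With a pseudocount of 0.1 in place of 1 it was -0.19, so the sign rests on the scale and on that library.

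G6pdx (ENSMUSG00000031400, chromosome X, 74409483 to 74429194) encodes glucose-6-phosphate dehydrogenase, which makes NADPH at the entry of the pentose phosphate pathway. It stood at 78.3, 76.2 and 72.7 TPM in WT and at 65.4, 55.3 and 63.4 TPM in A10KO. It was the tested member whose A10KO libraries were all below the WT libraries. The mean went from 75.7 ± 2.81 to 61.4 ± 5.32 TPM, a log2 change of -0.30 (SE 0.12, 95% interval -0.58 to -0.03, limma adjusted p = 0.53). Over the 16 alternatives the change lay between -0.35 and -0.23, and it was -0.25 with mitochondrial transcripts removed. The exons overlap those of Ikbkg on the opposite strand by 418 bases, and Ikbkg reached at most 22.7 TPM, so a part of these values cannot be told apart without strand. The ratio of Gclm to G6pdx, chosen after the values were seen, was 0.50, 0.33 and 0.45 in WT and 0.62, 1.16 and 0.89 in A10KO. That the ratio was higher in every A10KO library follows from the choice of these 2 genes. The two-sided exact permutation p = 0.1, the smallest this test can give here, was fixed by that choice and carries no information.

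**Figure D2:**
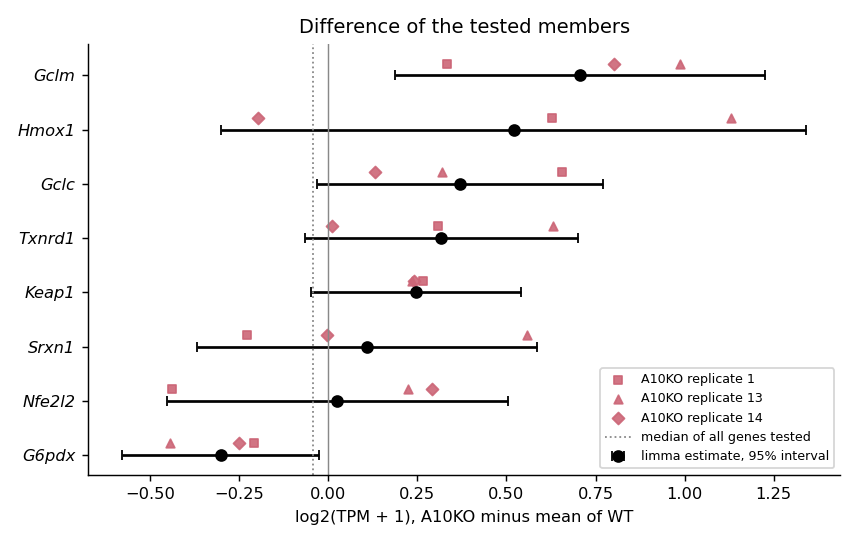
Log2 change of each of the 8 tested members on the log2(TPM + 1) scale (horizontal axis), with black points and bars for the limma estimate and its 95% interval, and red symbols for each A10KO library minus the WT mean. The intervals of Gclm (0.19 to 1.23) and G6pdx (-0.58 to -0.03) leave out 0, and the 3 symbols of Keap1 lie almost on top of each other.

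The level order in WT, by mean TPM, was Txnrd1, Hmox1, G6pdx, Nfe2l2, Srxn1, Gclm, Keap1, Gclc, Slc7a11 and Nqo1. Neighbours in this order did not overlap in WT, except Hmox1 with G6pdx and Slc7a11 with Nqo1. In A10KO the ranges of Txnrd1 and Hmox1 overlapped, as did G6pdx with Nfe2l2, Nfe2l2 with Srxn1 and Srxn1 with Gclm, whereas Hmox1 and G6pdx lay apart. Among all genes tested, mean levels over 6 libraries put Txnrd1 at the 93.3 percentile, Hmox1 at 90.6, G6pdx at 83.7, Nfe2l2 at 80.9 and Gclc at 54.4.

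The A10KO libraries did not share one pattern across the pathway. Of the 10 members, A10KO replicate 13 held the highest value of the 6 libraries for 5 (Hmox1, Gclm, Txnrd1, Srxn1 and Slc7a11) and the lowest for Nqo1 and G6pdx. Replicate 1 held the highest value for Keap1, Nqo1 and Gclc and the lowest for Nfe2l2 and Srxn1. Replicate 14 lay closest to WT for Hmox1, Txnrd1 and Srxn1, at log2 differences of -0.20, 0.01 and -0.0025 from the WT mean, yet at 0.80 for Gclm. The median over the 8 tested members was 0.29, 0.44 and 0.07 in A10KO replicates 1, 13 and 14. The mitochondrial share was also highest in replicate 13 (14.7%), and its part in these values was not tested. With mitochondrial transcripts removed and each library rescaled to its former total, the changes of Gclm, Hmox1 and Txnrd1 were 0.76, 0.58 and 0.37. That rescaling raises other genes most where the mitochondrial share was highest. The median over all genes went from -0.04 to 0.01 with it.

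**Figure D3:**
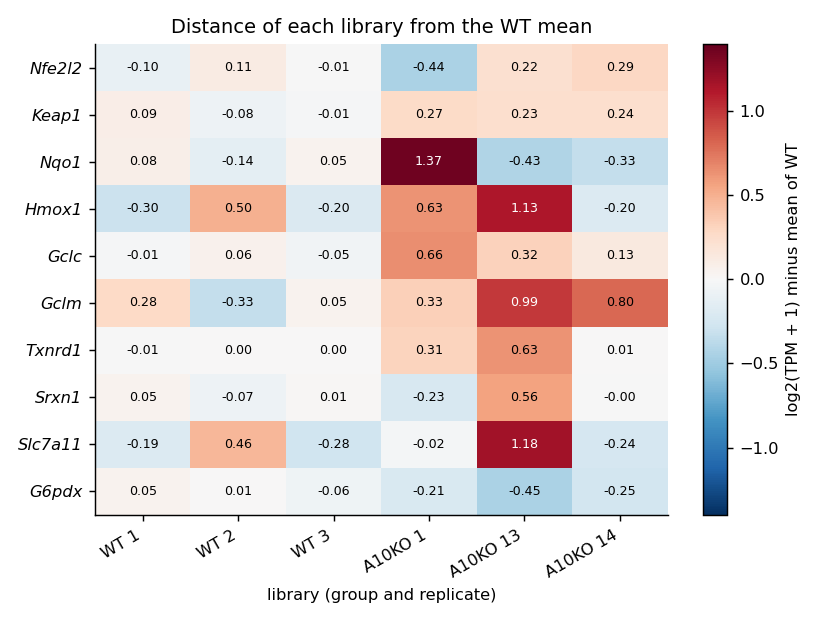
Difference of log2(TPM + 1) from the WT mean for the 10 members (rows) in the 6 libraries (columns), printed in each cell and coloured red above and blue below 0. Keap1, Gclc, Gclm and Txnrd1 are above 0 in all 3 A10KO columns (Txnrd1 by 0.01 in replicate 14) and G6pdx below 0 in all 3, while Nqo1 is at 1.37 in A10KO replicate 1 and below 0 in the others.

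Further genes of the pathway were grouped by role. A list for ATF4, a stress factor other than NRF2 described below, was counted with them. Of the 89 genes tested, limma called none in either direction at an adjusted p under 0.05. At an unadjusted p under 0.05, 4 were higher and 8 lower, and the ATF4 list held 1 and 2 of these. Over all genes tested, 0.0414% were called, and 2.56% higher and 6.27% lower had such a p. The groups did not overlap for 4 higher and 14 lower of the 89, where 5.61% and 11.5% of all genes did so. Here too the ATF4 list held 1 and 2. Unlike those of the members, the counts without overlap in these lists moved with the scaling. Among 11 tested partners and turnover factors of NRF2 the median log2 change was 0.09 (0.03 without A10KO replicate 13 and 0.18 without replicate 1, the extremes with 1 library left out). The groups overlapped for all 11, although 1 gene was higher without overlap under 3 of the 4 other scalings. Cul3, the ligase scaffold that works with KEAP1, stood at 63.4 ± 7.93 TPM in WT and 83.7 ± 26.1 TPM in A10KO, with replicate 13 at 112 TPM. Bach2, a repressor of the BACH family, ran from 6.43 to 27.2 TPM in WT and from 19.4 to 63.4 TPM in A10KO. Mafk, a small MAF partner, stood at 11.2 ± 1.22 and 13.6 ± 2.54 TPM, and the related factor gene Nfe2l1 at 88.4 ± 13.3 and 99.5 ± 27.8 TPM. Sqstm1, which encodes the autophagy receptor p62 that binds KEAP1, was at 682, 622 and 644 TPM in WT and at 990, 482 and 456 TPM in A10KO. Here replicate 1 was above and replicates 13 and 14 were below every WT library, as for Nqo1.

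Genes of glutathione synthesis and use other than the members had a median log2 change of -0.13 over 20 tested. Of these, 16 were below 0, where 6813 of all 12068 genes tested were. The groups did not overlap for 4 of the 20, all lower in A10KO, where 11.5% of all genes were lower and 5.61% higher. Under median-of-ratios and trimmed-mean scaling there were 2 lower and 1 higher. Without WT replicate 3 the median was -0.20. Gstm1, a glutathione transferase gene, stood at 46.6, 59.0 and 55.6 TPM in WT and at 41.4, 23.7 and 36.2 TPM in A10KO (log2 change -0.68, limma adjusted p = 0.436). Gstp2 stood at 523 ± 47.3 TPM in WT and at 447, 68.5 and 354 TPM in A10KO, so that replicate 13 was far below the others. Its log2 change was -1.23, and -0.39 without replicate 13. The near-identical neighbour Gstp1 stood at 2796 ± 35.1 and 2444 ± 382 TPM, and how reads were divided between them is uncertain. Gsto1, an omega-class transferase gene, stood at 77.2 ± 4.21 and 67.6 ± 3.34 TPM. Gpx4, which removes lipid peroxides, stood at 617 ± 3.06 and 557 ± 71.5 TPM.

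The thioredoxin and peroxiredoxin genes other than Txnrd1 and Srxn1 had a median of -0.16 over 15 tested, and -0.09 without A10KO replicate 13. There were 3 lower genes whose groups did not overlap, where 11.5% of all genes were lower, and 2 under 3 of the 4 other scalings. Txnrd2, the mitochondrial counterpart of Txnrd1, stood at 38.4, 38.0 and 39.8 TPM in WT and at 26.1, 26.6 and 31.6 TPM in A10KO. The log2 difference of -0.45 (SE 0.13; adjusted p = 0.405, limma) had the sign opposite to that of Txnrd1. Txnip, which binds and inhibits thioredoxin, stood at 67.3 ± 24.9 and 33.2 ± 19.5 TPM, and Prdx4, a peroxiredoxin of the endoplasmic reticulum, at 60.3 ± 1.03 and 49.6 ± 6.14 TPM. The abundant Prdx1 and Txn1 stood at 1101 ± 61.6 and 1026 ± 227 TPM and at 837 ± 46.8 and 737 ± 111 TPM.

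Among 9 genes of NADPH supply the median was -0.15, and -0.01 without A10KO replicate 13 and -0.24 without replicate 14. Pgls, the enzyme after glucose-6-phosphate dehydrogenase in the pentose phosphate pathway, stood below WT in every A10KO library, like G6pdx, at 201 ± 4.67 TPM in WT and at 169, 105 and 165 TPM in A10KO (log2 change -0.49, limma adjusted p = 0.53). Without replicate 13, the lowest, the change was -0.26. Me1, cytosolic malic enzyme, lay the other way, at 34.6, 40.4 and 36.8 TPM in WT and 42.7, 84.6 and 53.0 TPM in A10KO (log2 change 0.62, limma adjusted p = 0.525; 0.35 without replicate 13). Idh2, the mitochondrial NADP-dependent isocitrate dehydrogenase, stood at 596 ± 16.4 and 488 ± 46.9 TPM, and Tkt, transketolase, at 200.1 ± 3.59 and 182 ± 28.3 TPM.

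For heme and iron handling the median was 0.09 over 9 tested, and ran from 0.01 without A10KO replicate 13 to 0.22 without replicate 14. Fth1, the ferritin heavy chain that stores iron, stood at 3301, 3044 and 3332 TPM in WT and at 6463, 4720 and 4162 TPM in A10KO. All A10KO libraries were above all WT libraries, with replicate 1 highest, and the log2 change was 0.64 (SE 0.20, limma adjusted p = 0.433). The light chain gene Ftl1, which has processed copies in the genome that can share its reads, stood at 11756 ± 628 and 11092 ± 1981 TPM. Blvra, biliverdin reductase A, was lower in every A10KO library, at 55.7 ± 1.54 and 46.4 ± 2.92 TPM, and Tfrc, the transferrin receptor, stood at 70.6 ± 2.45 and 89.1 ± 20.4 TPM.

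Detoxification and superoxide genes had a median of -0.11 over 13 tested, and -0.03 without A10KO replicate 14. Osgin1, an oxidative stress-induced growth inhibitor gene, stood at 26.0, 19.6 and 23.5 TPM in WT and at 37.3, 51.3 and 34.4 TPM in A10KO. Every A10KO library was above every WT library, and the log2 difference of 0.79 (SE 0.19; adjusted p = 0.297, limma) lay between 0.62 and 0.91 over the alternatives. Cbr3, a carbonyl reductase gene, stood at 10.8, 7.90 and 12.4 TPM in WT and at 0.28, 6.55 and 7.83 TPM in A10KO, so that replicate 1, highest for Nqo1, was lowest here. Adh7, an alcohol dehydrogenase gene, stood at 6.25 ± 0.388 and 2.73 ± 1.88 TPM. Sod1 stood at 614 ± 24.4 and 588 ± 39.0 TPM and Akr1b3, aldose reductase, at 304 ± 17.7 and 276 ± 61.4 TPM.

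Slc7a11 and Hmox1 also respond to stress inputs other than NRF2, among them ATF4, the factor of the amino acid response. The ATF4 list held 12 tested genes, its targets and Atf4 itself. Their median log2 change was 0.03, with 6 above and 6 below 0. It was 0.01 without WT replicate 1, 0.20 without WT replicate 2, 0.05 without A10KO replicate 13, and -0.02 without WT replicate 3 or A10KO replicate 14. Their medians by library were -0.12, 0.38 and -0.28 in WT replicates 1, 2 and 3 and 0.02, 0.07 and 0.05 in A10KO. WT replicate 2, where Slc7a11 and Hmox1 were highest within WT, was also the WT library in which this list was highest; the part of one in the other was not tested. Asns, asparagine synthetase, stood at 133 ± 24.3 and 178 ± 15.7 TPM, Cebpb, a stress-induced factor gene, at 29.97 ± 9.20 and 12.0 ± 6.99 TPM, and Ddit4, an inhibitor of mTORC1, at 54.8 ± 33.2 and 24.1 ± 6.31 TPM. Atf4 and Phgdh stood at 282 ± 44.4 and 326 ± 36.7 TPM and at 259 ± 8.01 and 261 ± 45.8 TPM.

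**Figure D4:**
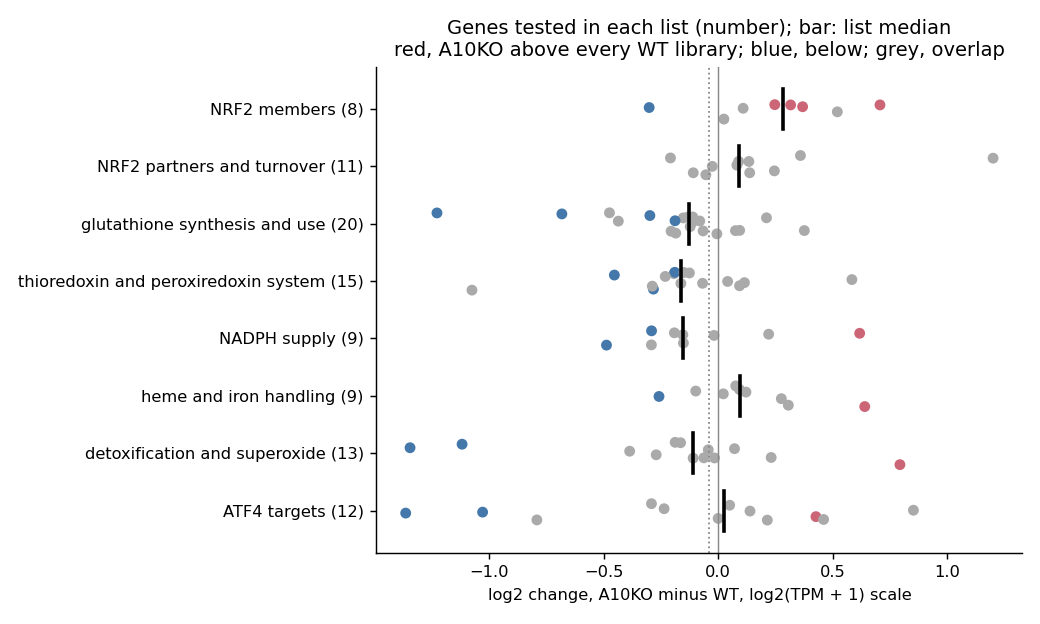
Log2 change, A10KO minus WT (horizontal axis), of each tested gene in 8 lists (rows, number tested in brackets), with black bars for list medians and a dotted line for the median of all genes tested (-0.04). Red points, with all A10KO libraries above WT, are 4 among the 8 tested members and 4 of the 89 genes in the other lists; blue points, with all A10KO libraries below, are 1 and 14. Over all genes tested these shares were 5.61% and 11.5%.

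For the 5 members whose groups did not overlap, the genes with the most similar levels were looked up by Pearson's r of log2(TPM + 1) over the 6 libraries, among 8770 genes that averaged 5 TPM or more and had a standard name. With so few libraries, many genes reach high values, and the group difference itself is part of r. The nearest to Gclm were Ankrd10, Fip1l1 and Pprc1 (0.99 each). The nearest to Gclc were Hmgn3 (0.996), Trim62 and Mycbp (0.99 each). The nearest to Txnrd1 were Gga3, Kpnb1 and St3gal3 (0.99 each), to Keap1 Fnta (0.99), Ttll3 and Acad8 (0.97 each), and to G6pdx Ier2, Ppfibp2 and Fxr2 (0.99 each). None of these genes was in the pathway lists. Ier2 belongs to a list of immediate early genes, of which 9 of 10 tested had a log2 change below 0 (median -0.49). Over all genes, 6813 of the 12068 tested were below 0. The part of the immediate early list in the G6pdx values was not tested.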

How the data were processed

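RNA of 6 B16F10 libraries (3 WT, 3 A10KO) was taken up in Trizol and cleared of DNA with DNase I, per the labels' protocols. The submitters' processing notes name fastp, HISAT and RSEM with the genome build GRCm38.p5; for their versions, roles and strand setting, the sources used here give nothing. The values deposited by the authors are TPM, read from the values themselves (decimals, and like totals of 969834 to 985045 in every column), although the table is presented as raw counts. The single-library tables matched the joint table in 6 of 6 cases. Count models were not used. Changes are A10KO minus WT on log2(TPM + 1), which understates low genes, from limma 3.58.1 in R 4.3.3 with a trend, two-sided. The fit was tested on simulated data, with planted changes larger than that of any tested member and the same spread in both groups. That trial does not show how often changes of the size seen in the members would be found. Members, gene lists and the rule for naming genes (all members; in each list every called gene, the 3 with the smallest p and the 2 with the highest mean; the 3 nearest genes of members whose groups did not overlap) were chosen with earlier results of these data known. Slc3a2, outside that rule, and the 4 ratios were chosen after their values were seen. Alternatives were 2 pseudocounts, 2 filters, 4 scalings, 2 other fits and leaving out each library.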

Additional observations from a re-analysis of the deposited data

How the results depend on the processing

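No member was called under any of the 16 alternatives. The count over all genes, 5, was 3 under quantile normalization, 25 with array quality weights, and 2 to 8 with 1 library left out (leaving out WT replicate 1 or 2 gave 2, WT replicate 3 gave 3, A10KO replicate 1 gave 8); the cause was not tested. Of the tested members, Keap1, Hmox1, Gclc, Gclm, Txnrd1 and G6pdx kept their sign in all 16. Nfe2l2 ran from -0.11 to 0.26 with 1 library left out, and was negative in 3 of these: -0.03 when WT replicate 1 was dropped, -0.07 for A10KO replicate 13 and -0.11 for A10KO replicate 14. Srxn1 ran from -0.12 to 0.28, at -0.12 without A10KO replicate 13, and was -0.0018 with array quality weights. Slc7a11, with no filter, was -0.13 without A10KO replicate 13, and Nqo1 was -0.38 without A10KO replicate 1 and -0.19 with a pseudocount of 0.1. Hmox1 ran from 0.22 to 0.88 and Txnrd1 from 0.16 to 0.47 with 1 library left out. The number of higher members without overlap, 4, was 5 without WT replicate 2 or A10KO replicate 14, where Hmox1 joined, and without A10KO replicate 1, where Nfe2l2 joined. Leaving out a library can only keep or raise this number. These checks were chosen after seeing the data. Where a library was left out, the tested genes were kept. No paired analysis was made because the labels do not pair any WT library with an A10KO library. Depth is unknown, so the precision of Nqo1 and Slc7a11, at or below 2.84 TPM, cannot be given.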
